A study of Homo sapiens with 10 samples.

Results

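The regions described here are the CTCF peaks of control HEK-293T cells that were called again after knockdown of CGGBP1 but not after its overexpression, here called the peaks lost only in OE. The HEK-293T line was derived from human embryonic kidney. CTCF peaks were deposited for cells with a non-targeting shRNA (CT), cells with an shRNA against CGGBP1 (KD) and cells with a lentiviral CGGBP1-FLAG cDNA (OE). A region was taken when it stood in the deposited list of CT peaks that overlap no OE peak and did not stand in the list of CT peaks that overlap no KD peak. This gave 3075 of 42978 CT peaks, or 7.15% of them. Of the 21562 CT peaks that overlapped a KD peak, 14.3% had no OE peak. The peaks were thus chosen by the CT, KD and OE peak calls, which are a description and carry no test. Since 1 CTCF library stands for each condition, no difference between conditions could be checked against replicates, and p-values are left out.

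All cells carried a lentivirus. Puromycin selection is stated for the control and the knockdown cells and not for the overexpressing cells, and the knockdown shRNA was directed to the CGGBP1 open reading frame. H3K4me3, H3K9me3 and H3K27me3 were measured by ChIP-seq in CT and KD but not in OE, and the cells that gave the 1 Input library are not named. Besides the 42978 peaks of CT, 47632 CTCF peaks were deposited for KD and 47216 for OE, as positions only and no height, score or read count, so the depth behind a single peak is unknown. According to the labels, peaks of CT and KD were called at p 0.0025 and those of OE at p 0.005, whereas the methods state 0.005 for all of them. The lists from repeat-masked reads, in which repeats were hidden before mapping, hold 26635, 24418 and 21071 peaks in CT, KD and OE. The paper reports fewer mapped CTCF reads for OE than for CT or KD, with and without repeat masking. The effect of this on the calls was not tested.

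CTCF is a zinc finger protein that binds a well-known DNA motif and, together with cohesin, anchors chromatin loops and insulates neighbouring genes from each other. CGGBP1 is a DNA-binding protein named for its affinity to CGG triplet repeats and is known to occupy interspersed repeats such as Alu and LINE-1 elements. Histone H3 carries K4me3 at active promoters, K9me3 over silenced repeats and K27me3 over Polycomb-silenced genes.

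The CTCF motif was learned from repeat-masked CT peaks that overlapped both a repeat-masked KD and a repeat-masked OE peak and none of the regions described here, 12567 peaks in all. Its most frequent bases over 14 positions are shown first, since every motif share below rests on them. Below them stand 12 sites from peaks lost only in OE with 8 bases on each side, read from hg38 5′ to 3′ on the strand of the motif with the site in capitals. The first 6 were among the highest-scoring sites of peaks that were also present in the repeat-masked CT and KD lists and absent from the repeat-masked OE list. The last 6 were among the highest-scoring sites within 1 kb of a protein-coding start with H3K4me3.
CTCF motif: CCACCAGGGGGCAC
THEGL intron, chr4:56544609-56544815: caaccaggCCACCAGGGGGCGCaggttggc
GRM4 intron, chr6:34027688-34027942: gaggcaggCCACCAGGGGGCGCctgggccc
TMEM164 intron, chrX:110167862-110168240: cccatctgCCACTAGGGGGCGCcgagcaga
intergenic, near GORASP2, chr2:170973346-170973640: gccacgggCCACCAGGTGGCGCcgggagcc
intergenic, near TMPRSS15, chr21:18499874-18500077: aaaagttgCCACCAGAGGGCACtactgctc
DSCAM intron, chr21:40386253-40386571: cggtctgaCCAGCAGGGGGCACcgagtgtt
EHD1 promoter, chr11:64887937-64888192: ggtggccaCCACTAGGGGGCGCcccgggca
DPCD promoter, chr10:101570271-101570615: ggaagccgCCAGCAGAGGGCGCgcgaggac
NRXN2 promoter, chr11:64723468-64723713: gggggtagCCAGCAGAGGGCGCtgcggccc
PCDHA13 promoter, chr5:140882642-140882959: ctcgatttCCACTAGATGGCGCatccgatg
RERE promoter, chr1:8848840-8849155: tccttcagCCGCCAGGGGGCGCagtggggc
CRBN promoter, chr3:3179677-3179899: ccctggggCCGCCAGGGGGCGCtgtggccc

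Many of the peaks hold no such site and lie in sequence that recurs through the genome. Their 8 leading shared 24-mers were taken one after another, each from the peaks that the earlier ones had not covered, and they were of 2 kinds. For 5 of them, here called tandem, 99.1% to 99.9% of the copies in hg38 stood within 10 kb of the next copy. For the other 3, here called dispersed, 5.49% to 8.84% did. The first 2 tandem ones are shown, because they led the list. They recur at a most common spacing of 340 and 342 bp, and their letters are known from alpha satellite, the tandem repeat of centromeres. No repeat annotation was used.
tandem, 26941 copies: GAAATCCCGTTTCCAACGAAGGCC
tandem, 28275 copies: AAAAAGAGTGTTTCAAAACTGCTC

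Whole peaks with a CTCF site and with a tandem 24-mer show the contrast, 1 of each, on the plus strand of hg38 with the CTCF site or the 24-mer in capitals. The first is the THEGL peak, with a GC content of 65.7% and no repeated base. The second holds a tandem 24-mer, has a GC content of 38.8%, consists wholly of repeated bases and lies in intergenic sequence.
chr4:56544609-56544815: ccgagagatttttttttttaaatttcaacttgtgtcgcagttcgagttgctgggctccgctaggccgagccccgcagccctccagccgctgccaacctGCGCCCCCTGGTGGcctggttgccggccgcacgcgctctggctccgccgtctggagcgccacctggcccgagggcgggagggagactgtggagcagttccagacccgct
chr12:35216487-35216687: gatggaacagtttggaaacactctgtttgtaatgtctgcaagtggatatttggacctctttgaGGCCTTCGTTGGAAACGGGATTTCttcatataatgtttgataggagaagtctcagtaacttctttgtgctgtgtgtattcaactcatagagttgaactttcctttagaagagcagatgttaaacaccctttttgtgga

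The peaks lost only in OE were a mixture of ordinary CTCF sites and repeats. A motif was found in 1826 of them, which is 59.4% (exact Clopper-Pearson 95% interval 57.6 to 61.1, counting error only), against 47.2% of all CT peaks. The share was 80.7% among the 18487 CT peaks that also had a KD and an OE peak, here called shared peaks, and 30.7% among the 1498 CT peaks lost only in KD, which had an OE but no KD peak. The difference between the peaks lost only in OE and the shared peaks was thus -21.4 percentage points (Newcombe 95% interval -23.2 to -19.6), and that from the peaks lost only in KD was 28.7 points (25.7 to 31.5). The motif was learned from peaks shared by the conditions and from none lost only in OE, which can favour the shared peaks. With the core consensus, which was not learned from these peaks, the difference from the shared peaks was -20.9 points (-22.7 to -19.1). Of all 260-bp windows of chromosomes 1 to 22, X and Y, 12.5% held a site. A base was called repeated where it lies in a 24-mer with at least 10 copies in hg38. Such bases made up 42.9% (41.2 to 44.7) of the peaks lost only in OE, 22.6% of the shared peaks and 65.7% of the peaks lost only in KD. They made up 37.7% of the peaks called in CT alone and 32.4% of all CT peaks.

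From both measures 4 classes were formed, and a peak was called repeated where at least 50% of its bases were. The largest class, with 1575 peaks or 51.2%, had a motif and was repeat-poor. A further 1016 peaks, or 33.0%, had no motif and were repeated. A motif in repeated sequence was found in 251 peaks (8.16%), and 233 peaks (7.58%) had neither a motif nor repeated sequence. In the shared peaks the class with a motif and without repeats made up 76.4%, and in the peaks lost only in KD the class without a motif and with repeats made up 60.5%.

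**Figure D1:**
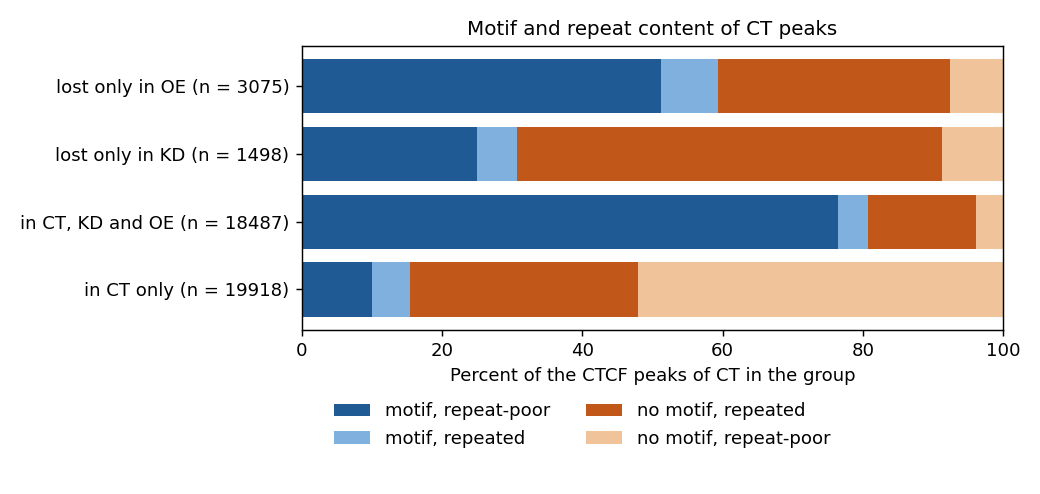
Percent of CT peaks (horizontal axis) in each of 4 classes of motif and repeat content, for peaks lost only in OE, lost only in KD, present in all 3 conditions and called in CT alone. Peaks lost only in OE had the motif-bearing, repeat-poor class as their largest at 51.2%, followed by the motif-free, repeated class at 33.0%.

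Within the motif-bearing, repeat-poor class the sites themselves scored lower than those of the shared peaks. The median score of the best site was 15.95 on the log-odds scale of the matrix, on which the highest possible score is 23.71, with quartiles of 13.27 and 18.45. In the shared peaks of this class the median was 17.28 with quartiles of 14.61 and 19.51, and in the peaks lost only in KD it was 15.11. Since the matrix was learned from shared peaks and from none lost only in OE, part of this difference may come from that choice. How large that part is was not tested. A site that passed the stricter threshold of p 0.00001 was present in 75.5% of these peaks lost only in OE and in 84.9% of the shared ones, a difference of -9.43 points (-11.7 to -7.28). In the peaks lost only in KD of this class the share was 70.8%. Each group had a median of 4 differences from the motif. The column that differed most from the shared peaks, chosen after its values were seen, was position 3 of the motif counted from its 5′ end. There A stood in 71.0% of the peaks lost only in OE, in 79.8% of the shared peaks and in 72.4% of the peaks lost only in KD. Sites were diverse, with 1135 different sequences among the 1575 peaks. The most frequent of them, CCGCCAGGTGGCGC and CCACCAGGGGGCGC, each stood in 10 peaks lost only in OE and in 12 and 75 shared peaks. A CpG in the site was found in 36.5% of these peaks lost only in OE and 35.3% of the shared ones. The site lay within 50 bp of the peak centre in 62.5% and 66.9% respectively.

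Peaks lost only in OE were narrower than shared peaks, with a median width of 260 bp against 282 bp, and the peaks lost only in KD had a median of 261 bp. Their KD partner was also narrower, with a median of 260 bp against 323 bp. The centres of the CT and KD peak lay a median of 40 bp apart, close to the 35.5 bp of the shared peaks. A run of 3 CGG triplets was found in 13 of the 3075 peaks (0.423%, 0.225 to 0.722), in 0.179% of all CT peaks and in 0.222% of the shared peaks, a difference from the latter of 0.201 points (0.00853 to 0.506). Among the peaks lost only in KD it was found in 4 of 1498 (0.267%, 0.0728 to 0.682). Input peaks overlapped 24 of the peaks lost only in OE (0.780%) but 9.18% of the shared peaks and 8.01% of the peaks lost only in KD. They overlapped 4.33% of all CT peaks and 18 of the 19918 peaks called in CT alone (0.0904%).

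The lists made from repeat-masked reads of the same libraries gave a second call at many of these places. They share the reads with the lists that chose the peaks and are a description, not an independent check. Among the 3075 peaks, 32.2% overlapped a repeat-masked CT peak, 34.7% a repeat-masked KD peak and 11.4% (10.3 to 12.6) a repeat-masked OE peak, against 28.7% of all CT peaks for the last. In the motif-bearing, repeat-poor class the shares for CT, KD and OE were 55.2%, 59.0% and 19.6%. The shared peaks of this class gave 73.6%, 81.8% and 77.4%, and the peaks lost only in KD gave 50.9%, 23.9% and 41.0%. Of the 841 peaks lost only in OE that had both a repeat-masked CT and a repeat-masked KD peak, 550 had none in OE, which is 65.4%. The same held for 519 of 10788 shared peaks, or 4.81%. The other 291 were called in all 3 repeat-masked lists, and the OE call was thus missing only from the list of unmasked reads. In the motif-free, repeated class just 10, 11 and 5 of 1016 peaks overlapped a repeat-masked peak of CT, KD and OE.

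**Figure D2:**
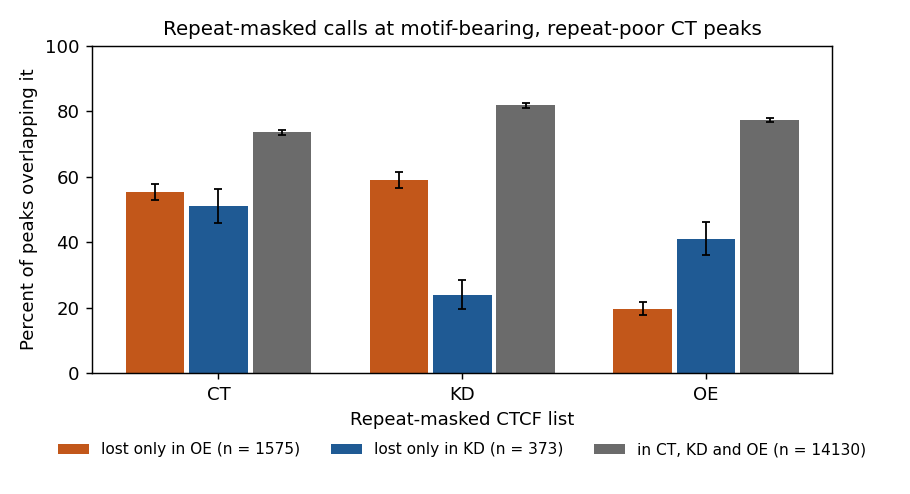
Percent of motif-bearing, repeat-poor CT peaks (vertical axis) that overlap a peak of the repeat-masked CT, KD and OE lists, with exact 95% intervals that cover counting error only. For peaks lost only in OE the bars are at 55.2% and 59.0% in CT and KD and at 19.6% in OE.

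Counted over all CT peaks that had a KD peak, the share without an OE peak differed between the classes. It was 10.0% (9.56 to 10.5) in the motif-bearing, repeat-poor class, 23.9% (21.4 to 26.6) where a motif lay in repeated sequence, 26.3% (24.9 to 27.7) in the motif-free, repeated class and 24.6% (21.9 to 27.5) with neither. For the opposite loss, counted over CT peaks that had an OE peak, the share without a KD peak was 2.57%, 9.83%, 24.2% and 15.5%. Where peaks that overlap an input peak were left out, a choice made after seeing the data, the motif-free, repeated class had no OE peak in 41.7% (39.7 to 43.7) in place of 26.3% and no KD peak in 36.6% (34.5 to 38.6) in place of 24.2%.

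Among motif-bearing, repeat-poor peaks the share without an OE peak was lower at higher site scores. It was 15.3% (13.9 to 16.8) for scores between 8.30 and 13.23, 11.9% from there to 16, 8.71% from 16 to 19 and 7.16% (6.42 to 7.95) from 19 upwards. The same order was seen for the loss in KD, from 4.87% to 1.32%. Narrow CT peaks under 240 bp lacked an OE peak in 13.3% of cases and peaks of 350 bp or more in 8.08%. In each of the 4 bands of CT width the share was larger in the lowest than in the highest score band, from 18.5% against 11.8% in the narrowest peaks to 14.4% against 4.90% in the widest. With H3K4me3 in CT, 5.76% (5.21 to 6.34) had no OE peak, and without it 13.2% (12.5 to 13.9). All of these shares use the calls that define the groups, and the scores use a matrix learned from shared peaks, so they are a description.

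**Figure D3:**
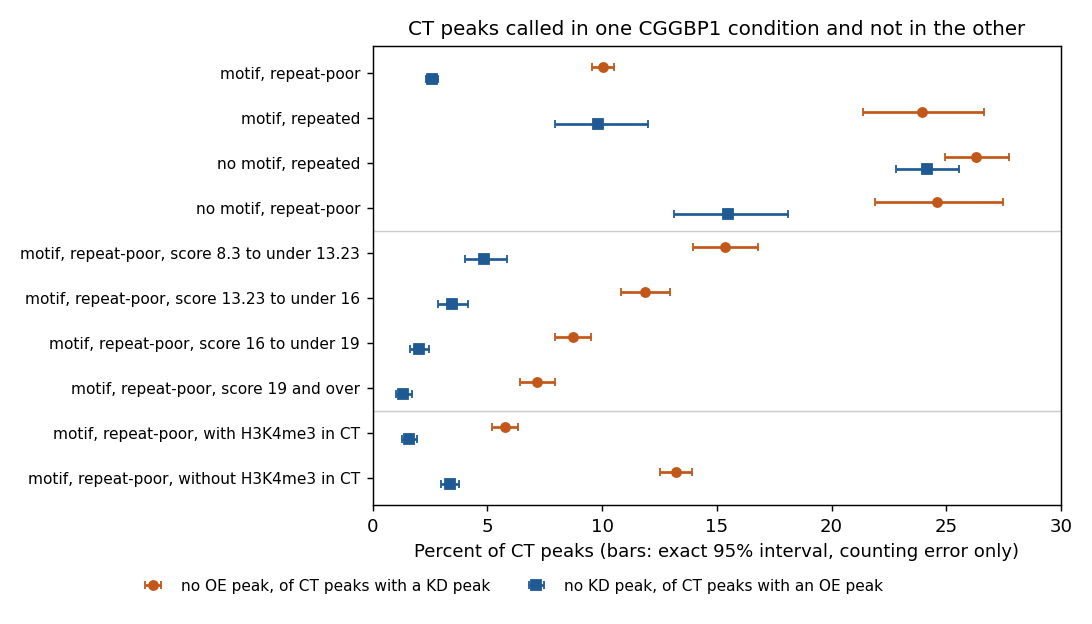
Percent of CT peaks (horizontal axis) without an OE peak among those with a KD peak (circles) and without a KD peak among those with an OE peak (squares), by class, by site score and by H3K4me3, with exact 95% intervals. In the motif-bearing, repeat-poor class the circles fall from 15.3% to 7.16% with rising site score.

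Most of these peaks had no OE peak within 10 kb. The median gap was 16260 bp over the 3058 peaks on a sequence with an OE peak, and 17 lay on a sequence without one. An OE peak stood within 500 bp of 114 peaks (3.71%), within 1 kb of 227 and within 10 kb of 1221. The peaks called in CT alone, which also lack an OE peak, lay farther from one in the median, but not in every class. Their median gap was 23735 bp, and 1.70% of them had an OE peak within 500 bp. At the edge of the rule, a peak at chr12:132243644-132243956 bordered an OE peak with a gap of 0 bp and was counted as lost. Gaps of 6 and 8 bp followed at chr1:44609190-44609533 and chr10:40964975-40965196. Just outside, the CT peaks at chr5:176235454-176235653, chr1:122389125-122389445 and chr14:22777778-22777990 overlapped an OE peak by 6, 7 and 10 bp and were counted as kept. Only the last of these 6 held a motif. In 30 cases the KD peak touched an OE peak although the CT peak did not.

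The gap depended on the sort of sequence. It was 23322 bp in the median for motif-bearing, repeat-poor peaks and 7115 bp for motif-free, repeated peaks. Among the peaks called in CT alone the medians of these classes were 21603.5 and 23394 bp. The motif-bearing, repeat-poor peaks lost only in OE thus lay farther from an OE peak. Where a motif lay in repeated sequence the median was 6192.5 bp, against 16319 bp in CT alone. With neither it was 22785 against 25228 bp. Peaks lost only in OE with a tandem 24-mer had a median gap of 2286.5 bp and those with a dispersed 24-mer one of 42080 bp.

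**Figure D4:**
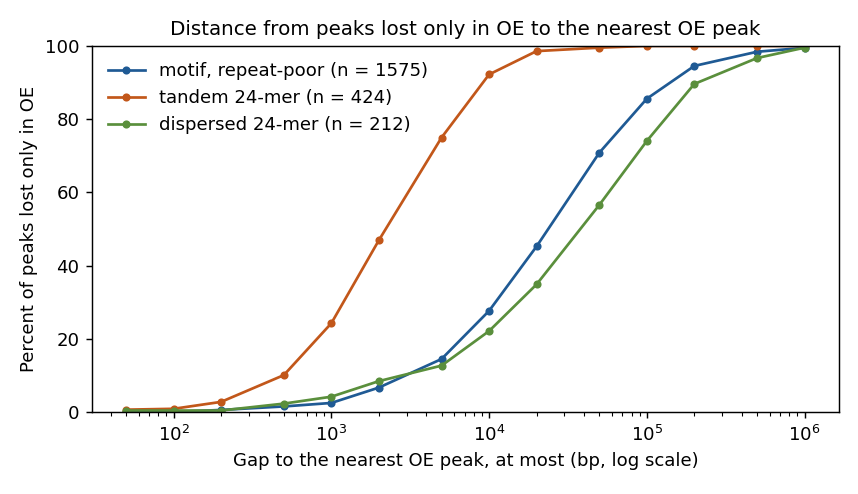
Cumulative percent of peaks lost only in OE (vertical axis) against the largest gap to the nearest OE peak in bp (logarithmic horizontal axis), for motif-bearing repeat-poor peaks and for peaks with a tandem or a dispersed 24-mer. Within 10 kb lay an OE peak for 92.2% of the tandem, 27.7% of the motif-bearing and 22.2% of the dispersed peaks.

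A tandem 24-mer was present in 424 peaks lost only in OE (13.8%, 12.6 to 15.1) and a dispersed one in 212 (6.89%, 6.02 to 7.85), and none held both. Among the shared peaks the shares were 6.92% and 1.41%, and among the peaks lost only in KD 17.8% and 8.08%. Among the peaks called in CT alone they were 3.74% and 5.95%, and over all CT peaks 6.31% and 4.14%. The 24-mers were picked for being frequent in the peaks lost only in OE, so their higher share there than in shared peaks is partly set by that choice. Of CT peaks with a KD peak, 24.9% of those with a tandem and 44.9% of those with a dispersed 24-mer had no OE peak. The tandem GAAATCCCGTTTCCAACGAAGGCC alone was in 146 peaks lost only in OE and in 511 shared peaks, and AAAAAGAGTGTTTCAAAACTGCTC in 115 and 239. The paper's results and discussion state that a read kept its best-scoring alignment only and that reads without a unique place were dropped. Its methods section gives only end-to-end mapping at default settings.

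Copies of the tandem 24-mers stand close together in hg38, so clustering of the peaks that hold them follows from how they were defined. The 24 bins of 1 Mb chosen for at least 10 peaks lost only in OE held 392 of them among 2421 CT peaks. Of these 392, 309 had a tandem 24-mer. The densest was chr7:59000001-60000000 with 26 of 159 CT peaks, followed by chr4:50000001-51000000 with 25 of 117 and chr10:40000001-41000000 with 23 of 172. All of the 422 tandem-bearing peaks on chromosomes 1 to 22, X and Y were intergenic. Of the dispersed kind, 61 of 207 lay in introns and 145 were intergenic.

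Of 1165 motif-free peaks lost only in OE on chromosomes 1 to 22, X and Y other than chromosome 8, 813 were wholly repeated, and the 5 widest of these were between 696 and 1110 bp wide. The widest lay at chr4:107355665-107356774, between genes, with 72.4 kb to the start of DKK2, which encodes a secreted Wnt modulator. The others lay at chr6:66602788-66603765, in an intron of SCART1 at chr10:133503555-133504315, at chrY:18039563-18040312 and at chr7:109907614-109908309. An H3K9me3 peak overlapped 4 of the 5 in CT, and the SCART1 peak had one in KD instead. The gaps to the nearest OE peak ranged from 5.74 to 976.7 kb.

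Histone marks differed between the classes, among the shared peaks as well. H3K4me3 peaks in CT overlapped 694 peaks lost only in OE, which is 22.6% (21.1 to 24.1), against 26.6% of all CT peaks, 49.9% of the shared peaks and 28.8% of the peaks lost only in KD. H3K9me3 in CT overlapped 472 of them (15.3%), against 10.6% of all CT peaks and 37.2% of the peaks lost only in KD. The shared peaks stood at 14.9%, a difference of 0.44 points (-0.89 to 1.85). H3K27me3 in CT overlapped 278 (9.04%), against 7.86% of all CT peaks, 23.7% of the peaks lost only in KD and 13.7% of the shared peaks, from which it differed by -4.64 points (-5.73 to -3.47). Of the 3075 peaks, 2014 (65.5%) had none of the 3 marks in CT, against 68.6% of all CT peaks and 46.8% of the shared peaks. In the motif-bearing, repeat-poor class 386 of 1575 peaks (24.5%) had H3K4me3 in CT, 4 had H3K9me3 and 1 had H3K27me3. H3K4me3 stood at 44.7% of the shared peaks of this class and 27.1% of those lost only in KD, and H3K9me3 at 0.771% and 0.536%. In the motif-free, repeated class 419 of 1016 had H3K9me3, 253 had H3K27me3 and 173 had both.

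Of the peaks with a mark in CT, 80.4% also had it in KD for H3K4me3, 64.0% for H3K9me3 and 73.4% for H3K27me3. H3K4me3 was called in KD at 724 peaks, with 558 in both. H3K9me3 was called at 526 in KD and at 302 in both, and H3K27me3 at 337 in KD and at 204 in both. In the motif-free, repeated class H3K9me3 stood at 41.2% (38.2 to 44.3) in CT and 47.8% (44.7 to 51.0) in KD, and H3K27me3 at 24.9% (22.3 to 27.7) and 30.6% (27.8 to 33.5). In the peaks lost only in KD of the same class, the order was the opposite, with H3K9me3 at 57.8% in CT and 51.8% in KD and H3K27me3 at 35.9% and 24.7%. Shared peaks of the class had H3K9me3 at 82.6% in CT and 83.9% in KD, and H3K27me3 at 76.0% and 75.6%. The KD CTCF call was required in the peaks lost only in OE and absent by definition in those lost only in KD. The part of that choice in these orders was not tested. With 1 library for each mark and condition these differences have no replicate check. The KD lists hold fewer peaks of both marks than the CT lists, 8356 against 14546 for H3K9me3 and 4804 against 6003 for H3K27me3.

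**Figure D5:**
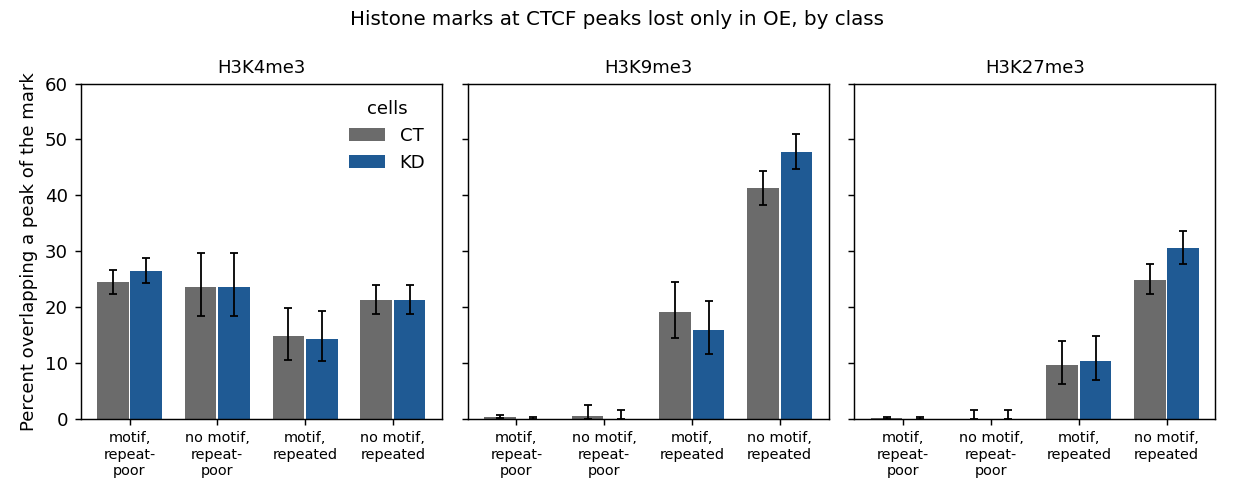
Percent of peaks lost only in OE (vertical axis) that overlap an H3K4me3, H3K9me3 or H3K27me3 peak in CT (grey) and KD (blue), in 4 classes of motif and repeat content, with exact 95% intervals. H3K4me3 lies between 14.3% and 26.5% in every class, whereas H3K9me3 and H3K27me3 are near 0 in the repeat-poor classes and reach 47.8% and 30.6% in the motif-free, repeated class.

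Shared peaks of the motif-free, repeated class carried these marks more often, with H3K9me3 in CT at 82.6%, H3K27me3 at 76.0% and H3K4me3 at 73.9%. For H3K9me3 the difference between peaks lost only in OE and shared peaks was -41.4 points (-44.7 to -38.0). An input peak overlapped 51.2% of those shared peaks and 2.36% of the peaks lost only in OE of that class. Without the peaks that overlap an input peak, left out after seeing the data, H3K9me3 in CT was at 72.3% of the shared peaks and 41.1% of the peaks lost only in OE. H3K27me3 in CT was then at 56.3% and 24.6%, and H3K4me3 at 52.2% and 20.6%. Within 10 kb, an H3K9me3 peak of CT was found for 29.7% (28.0 to 31.3) of all peaks lost only in OE, for 22.4% of the shared peaks and for 55.5% of the peaks lost only in KD. In the motif-bearing, repeat-poor class this share was 5.27% in CT and 2.22% in KD. Beyond leaving out these peaks, the part of the input signal in these shares was not tested.

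Of the 2878 peaks lost only in OE on chromosomes 1 to 22, X and Y, 1837 (63.8%) were intergenic, 834 (29.0%) lay in introns and 95 (3.30%) in exons, against 56.8%, 36.6% and 3.62% of all CT peaks. A further 112 (3.89%, 3.21 to 4.66) had their centre within 1 kb of a protein-coding transcription start. That share was 2.96% over all CT peaks and 4.31% over the shared peaks, from which it did not differ by more than counting error (difference of -0.42 points, -1.14 to 0.40). In the motif-bearing, repeat-poor class 95 of 1426 peaks (6.66%) lay at a start, against 5.13% of the shared peaks of that class, 7.65% of the peaks lost only in KD and 6.82% of the peaks called in CT alone. Of the 112 peaks at starts, 96 had a motif, 98 had H3K4me3 in CT and 96 had it in CT and KD.

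Promoters with the best sites belonged to genes of different functions. The 10 named here were picked among 95 peaks at starts with H3K4me3 in CT, so that mark in CT was set by the choice. All 10 also carried it in KD, as did 93 of the 95. Neither of the repressive marks overlapped them in CT, and both were rare in the motif-bearing, repeat-poor class as a whole. The highest score, 23.11, was at EHD1, which encodes an ATPase of endocytic recycling, with the peak centre 231 bp inside the gene and the nearest OE peak 6.13 kb away. At chr17:74923588-74923818 the peak stood 447 bp upstream of USH1G, a scaffold protein of hair cells, with a score of 22.72, and lay in OTOP2, which encodes a proton channel. DPCD, a gene linked to ciliary function, had a peak 117 bp upstream of its start and NRXN2, which encodes a presynaptic neurexin, one 394 bp upstream. The NRXN2 peak was called in the repeat-masked CT and KD lists and not in that of OE, and its nearest OE peak lay 19.2 kb away.

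PCDHA13 is one of the clustered protocadherins, whose alternative promoters are known to be chosen with the help of CTCF. Its peak stood 677 bp inside the gene, with a site score of 21.56 and a gap to OE of 12955 bp, and it too was absent from the repeat-masked list of OE alone. CRBN, which encodes cereblon, the substrate receptor of a ubiquitin ligase, showed the same pattern with a peak 61 bp upstream of the start, a score of 21.07 and a gap of 110.4 kb. RERE, which encodes an atrophin-family corepressor, had a peak 77 bp upstream. The remaining 3 were CALB2, which encodes calretinin, at chr16:71358574-71358813, RGS9, a regulator of G-protein signalling in photoreceptors, at chr17:65100595-65100836, and PPM1F, a protein phosphatase, at chr22:21952869-21953106. Their site scores were 20.83, 20.25 and 20.01, and their OE gaps were 8.63, 36.3 and 4.82 kb.

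Regardless of promoters, 398 peaks on chromosomes 1 to 22, X and Y other than chromosome 8 were called in the repeat-masked CT and KD lists but not in that of OE, and had no repeated base and no input peak. A motif was present in 358 of them and H3K4me3 in CT in 115, and the NRXN2 peak was among the 12 with the best sites. The THEGL and GRM4 peaks carried the best possible score of 23.71, and GRM4 encodes a metabotropic glutamate receptor. Their nearest OE peaks were 31.1 and 27.3 kb away. The site in TMEM164 scored 23.11. Between genes, sites scored 22.98 at chrX:131802874-131803296, 220.2 kb from the start of the kinase gene STK26, and 22.89 at 45.0 kb from GORASP2, which encodes a Golgi stacking protein. H3K4me3 was called in CT and KD at the THEGL, STK26 and GORASP2 peaks and not at those in GRM4 and TMEM164. Of the 12 best sites of this kind, the closest to an OE peak was at chr2:91627074-91627384 with a gap of 1.29 kb.

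DSCAM, a neuronal adhesion molecule, held a site with a score of 22.25 in an intron, 460.7 kb from its start, with the nearest OE peak 80.4 kb away. The site near TMPRSS15, which encodes enteropeptidase, scored 22.51 and had an OE gap of 114.8 kb. A site with the same score lay at chr7:113404334-113404868, 286.0 kb from SMIM30, and one with 22.65 at chr4:9495585-9495872 lay 51.3 kb from the defensin gene DEFB131A. In an intron of DOCK6, a guanine nucleotide exchange factor, the peak at chr19:11243319-11243611 lay outside ANGPTL8 and 5.96 kb downstream of its start. ANGPTL8 encodes a secreted regulator of lipoprotein lipase, and the site scored 21.99.

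Gene groups with a known CTCF interest were counted with 10 kb on each side, beside the 7.15% of all CT peaks that were lost only in OE. At the 53 clustered protocadherin genes 6 of 19 CT peaks were lost only in OE, 10 were shared and 3 were lost only in KD. At the 39 HOX genes, the homeobox genes of body patterning, it was 1 of 14, near HOXD3 and HOXD8. At the 249 zinc finger genes of chromosome 19 it was 4 of 96, and at the 19 imprinted genes 1 of 23, at GRB10, a growth factor receptor adaptor. Among 14 genes of kidney development 2 of 14 peaks were lost only in OE, at TFAP2A and WT1, both transcription factors. None of the 36 CT peaks at the 12 genes of CTCF, cohesin and their partners was lost only in OE, and 22 of them were shared. These counts are small and the protocadherin genes overlap each other, so that 1 peak can count for many genes.

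By chromosome, the share of CT peaks lost only in OE ranged from 5.44% on chromosome 17 to 12.5% (13 of 104, 6.83 to 20.4) on Y. Of the 104 CT peaks placed on Y, 7 were motif-bearing and repeat-poor. Whether the reads placed on Y came from a Y chromosome was not tested. Chromosome 18 had 10.2% (8.49 to 12.2), with 58 of its 109 peaks bearing a tandem 24-mer, and in its motif-bearing, repeat-poor class the share was 6.55%. Chromosome 4 had 9.18% (7.92 to 10.6), and 13.6% in the motif-bearing, repeat-poor class, or 80 of 590 peaks. Over all sequences 1575 of the 18057 CT peaks of that class were lost only in OE. In that class chromosomes 21 and 13 had 11.9% and 11.2%, and chromosome 22 had 5.12%. A shared peak stood within 10 kb of 20.6% of the peaks lost only in OE, and another peak lost only in OE within 10 kb of 7.09%.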

How the data were processed

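The authors deposited 19 peak lists from HEK-293T ChIP-seq, and their values are genome positions in bp, a unit other than a count or a signal, since no height, p-value or read count is given. Per the labels and the methods, the authors sequenced the libraries on an Ion Torrent S5, mapped the reads to unmasked or repeat-masked hg38 with Bowtie2, called peaks in each library with MACS2 and made the exclusive lists with bedtools. Repeat-masked lists were called at p 0.001, and histone and input lists at p 0.001 per the labels. For H3K9me3 and H3K27me3 the antibodies are swapped between methods and labels, and each list was taken by its title. Starts were read as counted from 0 and are given counted from 1. The narrowest unmasked CTCF peak is then 199 bp wide, 1 bp less than the stated minimum, so positions may be off by 1 bp. Target and condition in the labels set the groups.

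Overlap of at least 1 bp counted as shared, and with it 0 CT peaks disagreed with the deposited exclusive lists. Sequence came from hg38 (455 sequences) and genes from GENCODE release 44. The motif matrix began with sites within 1 mismatch of a consensus of 12 positions, found in 7918 peaks, and reached 11748 sites after 7 rounds. A site counted at p 0.0001 at the base composition of hg38, which is a score of 8.30. RepeatMasker was not run. Repeats were measured by 24-mers with at least 10 copies. The sequences of the dispersed 24-mers are not reported here. Bases in repeats have normal 95% intervals with peaks as units. Simulated data with known answers were used to test the scripts, in python 3.11.15 with numpy 2.4.6, pandas 2.3.3, scipy 1.17.1 and numba 0.67.0. Depth could not be taken from the lists, so intervals cover the counting error of peaks only.

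The peaks and the gene lists were chosen with earlier results of these data known. Named were, leaving out chromosome 8, the 12 highest-scoring peaks called in repeat-masked CT and KD but not OE without repeated bases or input peak, the 10 highest-scoring at starts with H3K4me3, the 5 most repeated motif-free peaks, which were the widest of the wholly repeated ones, and the 3 on each side of the rule. Alternatives changed the overlap, the motif and repeat measures, the flanks and the peaks left out.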

Additional observations from a re-analysis of the deposited data

How the results depend on the processing

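No paired analysis was possible because each condition has 1 library, and for the same reason no library could be left out in turn. Of 66 alternative settings, 50 gave a share within the 95% interval of the reported one or a count within 1.5 times of it, 16 moved it further and 0 turned the sign of a difference. The number of peaks lost only in OE lay between 2878 and 3071 under its alternatives. The share with a motif moved to 44.7% at p 0.00001, to 32.8% with the core consensus and to 52.2% in the 200 bp around the centre. Its difference from shared peaks moved to -23.3 points at p 0.00001, to -27.8 points without peaks that overlap input peaks and to -23.3 points on chromosomes 1 to 22, X and Y. Its difference from peaks lost only in KD moved to 24.4 points at p 0.00001 and to 18.2 points with the core consensus. Repeated bases moved to 39.1% with at least 100 copies, and their difference from shared peaks to 28.6 points without peaks that overlap input peaks, to 22.2 points on chromosomes 1 to 22, X and Y and to 22.9 points for CT peaks of 200 to 300 bp. H3K4me3 moved to 27.6% within 1 kb, H3K9me3 to 24.8% within 5 kb, and the share at starts to 8.93% within 5 kb and to 7.71% with all annotated genes. Chosen after seeing the data, leaving out peaks that overlap input peaks moved the share of motif-free, repeated CT peaks with a KD and no OE peak to 41.7%, and the H3K9me3 difference of that class from shared peaks from -41.4 to -31.2 points. Without heights or reads, a peak just under the threshold in OE cannot be told from one that is absent.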

Other observations

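Outside chromosomes 1 to 22, X and Y stood 197 of the peaks lost only in OE, of which 172 were on alternate loci, 13 on unplaced and 12 on unlocalized sequences. The 7 alternate loci of the HLA region, which repeat the antigen-presentation genes of chromosome 6 in other versions, held 92 of them, or 92 of the 228 CT peaks there, while 78 of those CT peaks were shared. A motif without repeats was found in 86 of the 92. The 88 with a motif had only 38 different site sequences, so many are versions of the same place and do not count as separate regions. Without these sequences a motif was found in 57.9% of the peaks, repeated bases made up 43.9%, and a repeat-masked OE peak overlapped 10.9% and an H3K4me3 peak in CT 22.7%.

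None of the 3 histone marks in CT overlapped 1186 of the 1575 motif-bearing, repeat-poor peaks lost only in OE, which is 75.3% (73.1 to 77.4). In the same class the share was 54.9% of the shared peaks, 72.7% of the peaks lost only in KD, 85.1% of the peaks called in CT alone and 60.3% of all CT peaks. H3K4me3 in that class was called in KD but not CT at 71 peaks and in CT but not KD at 40. A start of any annotated gene lay within 1 kb of 12.6% (10.9 to 14.4) of the motif-bearing, repeat-poor peaks lost only in OE and 9.77% of the shared peaks of that class, a difference of 2.78 points (1.09 to 4.67). It was 13.7% of the peaks lost only in KD (difference of -1.11 points, -5.33 to 2.52) and 11.1% of the peaks called in CT alone (1.48 points, -0.72 to 3.73).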
